A study of Mus musculus with 2 samples.

Results

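The genes described here encode the Eph receptors and their ephrin ligands, the Slit ligands and their Robo receptors, and the netrins with their receptors Dcc, neogenin (Neo1) and Unc5. They were chosen by symbol from the annotation of the array, by a rule that reads no measured value, although the set was proposed with earlier results of these data known. The choice took Epha, Ephb, Efna, Efnb, Slit, Ntn or Ntng followed by a number, and Robo1 to Robo3, Unc5a to Unc5d, Dcc and Neo1, on transcript clusters with a single symbol. It gave 38 genes of 19938 measured, read from 42 clusters of 28853. Where a gene had several clusters, the brightest was used. Ephb2 is not analysed here, and the cluster of Ntng2 carries the symbol of another gene too, so Ntng2 was left out.

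RNA came from cells of embryonic mouse hearts at E14.5 that were sorted by FACS for tdTomato after collagenase digestion, and each sample was hybridised to a Mouse Gene 1.0 ST array. One sample was Adam19+/+ and the other was Adam19-/-, lacking a functional gene for the membrane-anchored metalloprotease ADAM19. Both carried Wnt1-Cre and R26tdTomato/+ on a C57BL/6 background, so that tdTomato marks cells with a history of Wnt1-Cre activity, chiefly the neural crest, and their descendants. There was 1 array per genotype, the labels do not say how many hearts stand behind each, and every difference below is one between 2 samples with no replicate and no test.

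Guidance receptors and ligands steer growing axons and migrating cells by contact or by secreted cues. A-type ephrins are held at the surface by a lipid anchor and B-type ephrins span the membrane, and both bind Eph receptor tyrosine kinases on neighbouring cells, often causing the cells to part. Slits are secreted and mostly repel cells that carry Robo1 or Robo2, whereas netrins attract through Dcc and repel through Unc5 receptors. In the heart, cardiac neural crest cells travel through tissue that makes several of these cues, and their descendants include artery wall, valve mesenchyme, autonomic neurons and glia, all of which use some of them.

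Sequence upstream of the annotated start is shown for 4 members. Ntn3, Robo2 and Unc5c were the members that differed by at least 1.2-fold between the arrays, and Robo1 is the next measured gene to Robo2 on chromosome 16. The sequences are the 250 bases before the start farthest upstream, 5′ to 3′ on the strand of the gene, from the RefSeq promoter table of GRCm38.p6. Capitals mark CANNTG, the E-box core read by basic helix-loop-helix factors, and GGGCGG or its reverse complement CCGCCC, the GC box read by Sp factors. Both motifs were searched on both strands and do not overlap in these 4 windows.
Robo1 (chr16:72662899-72663148, plus strand): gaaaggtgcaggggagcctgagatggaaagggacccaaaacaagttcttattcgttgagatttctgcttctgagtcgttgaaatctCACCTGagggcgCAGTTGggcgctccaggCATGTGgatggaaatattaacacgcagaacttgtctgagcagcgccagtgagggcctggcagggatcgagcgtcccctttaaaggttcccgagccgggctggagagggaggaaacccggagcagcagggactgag
Robo2 (chr16:75447294-75447543, minus strand): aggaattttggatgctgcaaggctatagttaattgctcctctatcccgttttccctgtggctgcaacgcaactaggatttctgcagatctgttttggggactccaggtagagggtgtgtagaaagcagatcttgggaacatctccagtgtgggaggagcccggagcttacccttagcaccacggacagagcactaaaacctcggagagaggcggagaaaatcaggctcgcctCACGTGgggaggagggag
Unc5c (chr3:141465314-141465563, plus strand): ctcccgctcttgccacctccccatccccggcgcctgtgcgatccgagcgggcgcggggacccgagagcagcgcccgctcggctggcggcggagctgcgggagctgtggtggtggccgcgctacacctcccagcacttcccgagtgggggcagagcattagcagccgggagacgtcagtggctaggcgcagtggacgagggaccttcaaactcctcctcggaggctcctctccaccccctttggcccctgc
Ntn3 (chr17:24209388-24209637, minus strand): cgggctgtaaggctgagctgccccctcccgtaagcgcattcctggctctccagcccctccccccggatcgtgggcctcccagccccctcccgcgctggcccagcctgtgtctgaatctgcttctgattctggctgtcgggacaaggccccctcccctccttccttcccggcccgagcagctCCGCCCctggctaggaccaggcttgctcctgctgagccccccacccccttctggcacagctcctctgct
The Robo1 window held 3 copies of CANNTG and the Robo2 window 1, and neither held a GC box. The Ntn3 window held 1 GC box and the Unc5c window neither motif. Of the members, 33 had promoters in the table, 38 promoters in all since 3 starts are listed for Robo2 and more than 1 for Epha7, Efna1 and Efna3. CANNTG was in 39.5% of these 38 promoters against 66.2% of all 32851 of the same length, from 27025 genes, and GGGCGG in 73.7% against 32.7%. Promoters of Dcc, Efnb3, Ntn1, Slit1 and Unc5d are not analysed here. A match describes the letters of the window and is not evidence of binding.

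The values are the deposited log signals, taken as base 2 from their range, and the sample labels can be checked on a few genes. Adam19 read 11.62 in the Adam19+/+ sample and 9.77 in its Adam19-/- counterpart, 3.60-fold lower, and the labels do not say whether its probes lie in the deleted part. All 9 markers of neural crest mesenchyme and smooth muscle and all 8 measured of autonomic neurons were above the expression floor, a log2 signal of 8.01 that is the midpoint of all genes ranked by mean signal and is not a limit of detection. The floor was passed by 5 of 6 Schwann cell and glia markers and 4 of 5 of melanocytes. It was also passed by 10 of 12 cardiomyocyte, 5 of 10 endothelial and 4 of 12 leukocyte markers. Of the leukocyte markers, C1qb and Fcer1g passed it through their Adam19-/- values alone, reading 7.98 and 7.75 in the Adam19+/+ sample. Signals of the Y-linked genes Kdm5d, Uty and Eif2s3y were 2.25-fold to 3.08-fold lower in the Adam19-/- sample, while Xist was at 11.25 and 11.14. A difference in the sex of the embryos therefore cannot be told apart from genotype in any value below, and Efnb1 is the X-linked member. In these bulk samples, fewer cells of a type and less RNA per cell cannot be told apart. Signals of different genes come from different probes, so only differences within a gene are compared. Pairs of values below are log2 signals, Adam19+/+ first and Adam19-/- second, and a difference is the second minus the first.

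Of the 38 guidance genes, 24 were higher and 14 lower in Adam19-/- cells, or 63.2% higher, against 51.7% of all genes higher and 34.1% lower. The members' median difference was 0.05 on the log2 scale, beside 0.0061 for all genes. After each array was centred on its median the split of the members was 20 higher and 18 lower. This centring lowered every difference by the same amount, so the median was then 0.0050 for the members and -0.04 for all genes. The split of all genes after centring was not counted. A difference of at least 1.2-fold, 0.26 on the log2 scale, was the size counted here. Past it, 3 members were higher, which is 7.89% of them beside 5.07% of all genes, and none was lower, beside 2.02% of all genes. None reached 1.5-fold, which 0.155% of all genes did upward and 0.0552% downward. The central 95% of all genes' differences ran from -0.25 to 0.33, and 37 members lay inside it, the exception being Ntn3. Set beside all genes, dim ones included, the share of members past 1.2-fold and their median thus lay near those of the whole array.

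**Figure D1:**
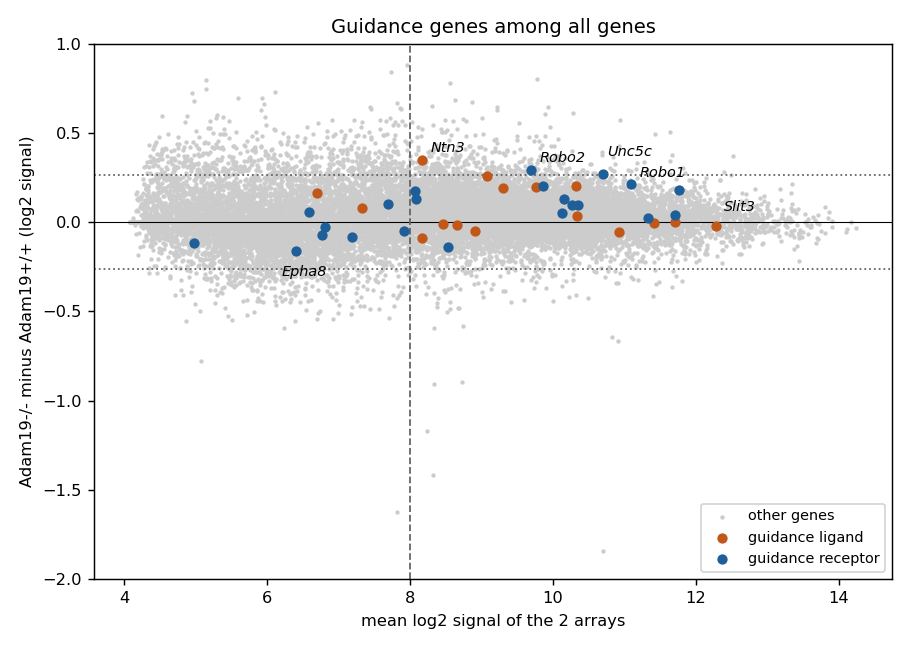
Difference between the arrays (Adam19-/- minus Adam19+/+, log2) against the mean log2 signal for all genes (grey, 1 point a gene), with guidance ligands in orange and guidance receptors in blue. Dotted lines mark 1.2-fold, the dashed line marks the expression floor of 8.01, and of the 38 members only Ntn3, Robo2 and Unc5c lie past 1.2-fold.

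Members above and below the floor differed in their split, as did all genes. The 28 members with a mean signal at or above the floor divided into 20 higher and 8 lower, and their median was 0.10. Of all 9969 genes at or above it, 65.1% were higher and 33.8% lower, and their median was 0.04. All 3 members past 1.2-fold are among the 28, or 10.7% of them, beside 3.76% of genes at this level that were higher past 1.2-fold. Ntn3 and Unc5a are among the 28 through their Adam19-/- values, since on the Adam19+/+ array both lay under the floor, so these counts are a description only. The 10 members below the floor divided into 4 higher and 6 lower, and their median was -0.04. Of all genes below the floor, 38.2% were higher and 34.5% lower, the rest having equal values on both arrays.

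Receptors and ligands at or above the floor divided differently. Of the 14 receptors, 13 were higher, Epha2 being the exception, and the median was 0.13. Unc5a counts among these receptors and Ntn3 among the ligands through the Adam19-/- value alone. The count was 11 of 14 after median centring and 12 of 14 after lowess centring, with medians of 0.08 and 0.09. Of the 14 ligands, 7 were higher, with a median of 0.00026 that was -0.05 after median centring and -0.02 after lowess centring. Beside the 65.1% of genes at this level that were higher before any centring, the receptors lay above that share and the ligands below it. Over all members, dim ones included, 15 of 22 receptors were higher with a median of 0.08, and 9 of 16 ligands with a median of 0.02. Their mean differences ran in the other order, 0.06 for receptors and 0.08 for ligands. The contrast was thus wider above the floor than over all members. No test of this contrast can be made with 1 array per genotype.

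**Figure D2:**
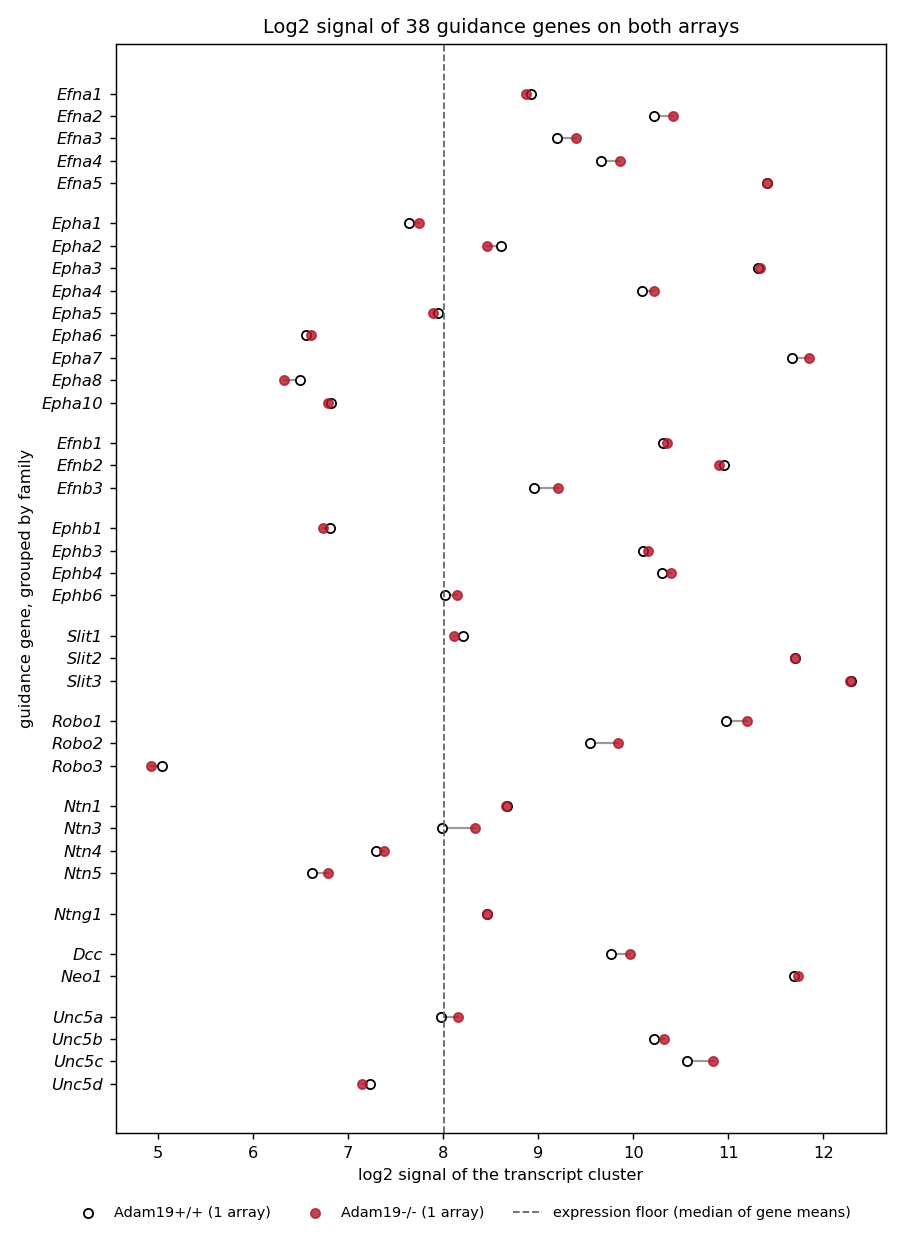
Log2 signal of each of the 38 guidance genes on the Adam19+/+ array (open circles) and the Adam19-/- array (red), grouped by family, with the expression floor of 8.01 dashed. Most pairs of points nearly coincide, and the widest gaps are those of Ntn3, Robo2, Unc5c and Efnb3.

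Slit ligands were nearly equal on the arrays while their main receptors were higher in Adam19-/- cells. Slit3, a Slit of muscle and mesenchyme, read 12.29 in the Adam19+/+ sample and 12.28 in its Adam19-/- counterpart, and Slit2, which directs many axons and vessels, 11.70 and 11.71. Slit1 was at 8.21 and 8.12, a difference of -0.09 or 1.06-fold, near the floor. This was the widest gap of the 3 Slit genes, and their median of -0.02 was below 0 under each scaling tried.

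Robo1, which with Robo2 carries most of the Slit signal in mammals, read 10.98 in the Adam19+/+ sample and 11.19 in its Adam19-/- counterpart, higher by 0.22 or 1.16-fold. Robo2 was at 9.55 and 9.84, a difference of 0.29 or 1.22-fold, the second largest of the guidance genes and rank 759 of 19938 by increase. Robo3, a divergent receptor of commissural axons that binds Slits poorly in mammals, was at 5.04 and 4.93, far below the floor. Both Robo genes above the floor were therefore higher, and the dim one was not. Robo1 and Robo2 lie side by side among the measured genes, and Epha3, 9 measured genes away on the same chromosome, differed by 0.02. Robo2 kept a difference between 0.24 and 0.29 across the alternatives, and was just under 1.2-fold after median centring, lowess centring or quantile normalisation.

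Of the netrin ligands, Ntn1 hardly differed and the largest difference of any member was that of Ntn3. Ntn1, the classical secreted attractant, read 8.67 in the Adam19+/+ sample and 8.66 in its Adam19-/- counterpart. Ntn3, a close relative of netrin-1 described in sensory ganglia, was at 7.99 and 8.34, a difference of 0.35 or 1.27-fold. Its Adam19+/+ value lay under the floor and its Adam19-/- value above it, and it ranked 421 of 19938 by increase. Ntn4, a netrin of basement membranes, was at 7.30 and 7.37, and Ntn5 was at 6.62 and 6.79, both below the floor. Ntng1, a lipid-anchored netrin-G that binds the adhesion protein NGL-1 and not Dcc, was at 8.47 and 8.46. Ntn1 and Ntng1, above the floor on both arrays, were thus level, and the higher netrins were Ntn3, which crossed the floor, and Ntn4 and Ntn5 below it.

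Receptors of netrins above the floor were higher in Adam19-/- cells by varying amounts, except for Neo1 after median centring. Dcc, the attractive netrin receptor, was at 9.76 and 9.96, a difference of 0.20 or 1.15-fold. Neo1, which also binds repulsive guidance molecules, was at 11.69 and 11.73, a difference of 0.04 that was -0.0065 after median centring. Unc5c was at 10.57 and 10.84, a difference of 0.27 or 1.21-fold, and ranked 918 of 19938 by increase, with values from 0.22 to 0.27 across the alternatives. It was under 1.2-fold after median centring, lowess centring or quantile normalisation. Unc5b, the member best known from vessels, was at 10.22 and 10.32, a difference of 0.10. Unc5a was at 7.98 and 8.16, across the floor, a difference of 0.18. Unc5d, below the floor, was at 7.23 and 7.15.

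Over Robo1 to Robo3, Dcc, Neo1 and Unc5a to Unc5d, 7 of 9 genes were higher with a median of 0.18, and the 2 lower ones, Robo3 and Unc5d, lay below the floor. The median stayed between 0.13 and 0.18 across the alternatives that use all 9 genes, and with median centring 6 of 9 were higher. Over the Slits, netrins and Ntng1, 4 of 8 were higher with a median of -0.0018. The median was -0.05 after median centring and -0.02 after lowess centring, with 3 of 8 higher in each, and 0.01 when clusters of a gene were averaged.

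**Figure D3:**
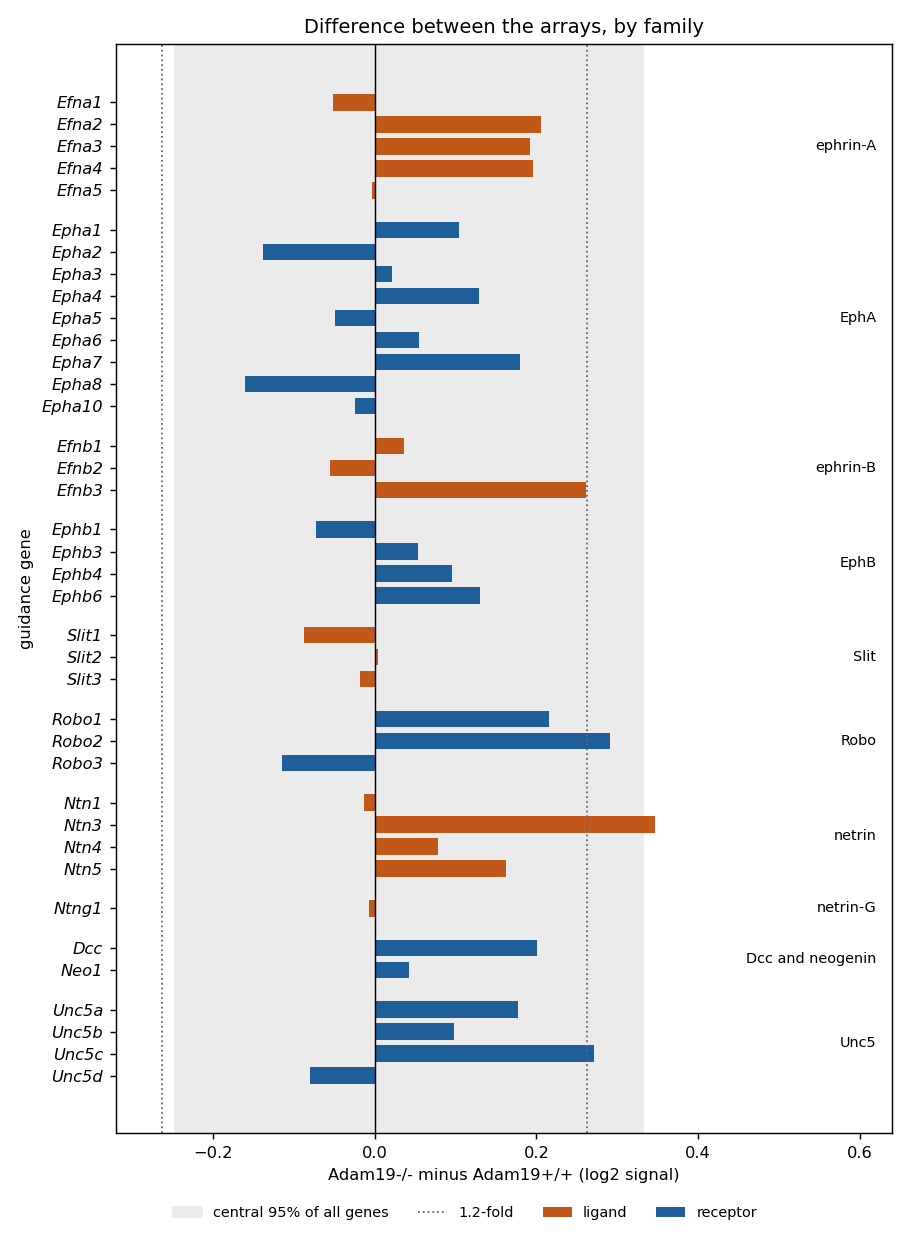
Difference between the arrays (Adam19-/- minus Adam19+/+, log2 signal) for each guidance gene, ligands in orange and receptors in blue, grouped by family. Grey marks the central 95% of all genes, -0.25 to 0.33, and dotted lines mark 1.2-fold. The longest bar upward is that of the ligand Ntn3, at 0.35, and the longest downward that of the receptor Epha8, at -0.16.

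Among the ephrins, 5 of 8 were higher, and 4 of 8 after median or lowess centring. All 8 were above the floor. Efna5, the ephrin-A5 gene known from retinal maps, was at 11.41 on both arrays, a difference of -0.0032. Efna2 read 10.21 in the Adam19+/+ sample and 10.42 in its Adam19-/- counterpart, higher by 0.21 or 1.15-fold. Efna3 was at 9.20 and 9.40 and Efna4 at 9.66 and 9.86, differences of 0.19 and 0.20. Efna1, an early response gene of endothelium, was at 8.93 and 8.88, a difference of -0.05. Efna1, Efna3 and Efna4 lie together on chromosome 3, with no measured gene between Efna1 and Efna3 and 1 between Efna3 and Efna4, so the 3 neighbours did not share a direction.

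The B-type ephrins signal in both directions, since their cytoplasmic tails are themselves phosphorylated. Efnb2, an ephrin of arteries and of crest migration, was at 10.95 and 10.90, a difference of -0.06. Efnb1, the X-linked gene whose mosaic loss causes craniofrontonasal syndrome, was at 10.32 and 10.35, a difference of 0.04 that was -0.01 after median centring and -0.0010 after lowess centring. Efnb3, an ephrin of the neural midline, was at 8.95 and 9.21, a difference of 0.261 where 1.2-fold is 0.263. Efnb1 and Efnb2 were thus nearly level, and Efnb3 was the member of this family that stood higher.

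Eph receptors differed little, with 8 of 13 higher, a median of 0.05 and none past 1.2-fold. The ephrin median was 0.11, so in this system the ligands did not lie below the receptors. After median centring 7 of 13 were higher. Of the A-type receptors, Epha3 was at 11.31 and 11.33, a difference of 0.02 that was -0.03 after median centring and -0.0029 after lowess centring. Mouse embryos without Epha3 have defects of the endocardial cushions. Epha7 was at 11.67 and 11.85, a difference of 0.18 or 1.13-fold, the largest increase among the Eph receptors. Epha4, which binds ephrins of both types, was at 10.09 and 10.22, a difference of 0.13.

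Epha2, a receptor of epithelia and vessels, went the other way, from 8.61 in the Adam19+/+ sample to 8.47 in its Adam19-/- counterpart, or -0.14. Epha8, below the floor at 6.49 and 6.33, had the largest decrease of the guidance genes, -0.16 or 1.12-fold lower, and ranked 1322 of 19938 by decrease. Epha1, Epha5, Epha6 and Epha10, all below the floor, differed by amounts between -0.05 and 0.10. The 5 A-type receptors below the floor split into 2 higher and 3 lower.

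Of the B-type receptors, Ephb4, the venous partner of ephrin-B2, was at 10.31 and 10.40, a difference of 0.10. Ephb3 was at 10.11 and 10.16, a difference of 0.05, and Ephb6, which lacks kinase activity, was at 8.02 and 8.15, a difference of 0.13. Ephb1 was below the floor at 6.81 and 6.73, a difference of -0.07. The EphB median of 0.07 stayed above 0 under each scaling tried, whereas the EphA median of 0.02 became -0.03 after median centring and -0.0029 after lowess centring.

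A few members had a second cluster, which gives the spread between measurements of a gene on the same arrays. The second cluster of Unc5d gave 0.04 where the brightest gave -0.08, and that of Epha10 gave 0.06 against -0.02. For Ephb1 the second cluster was at 5.83 on both arrays, and for Ntng1 it gave 0.05 against -0.0073. The gaps of 0.05 to 0.12 compare with a median gap of 0.07 and a 95th percentile of 0.29 over 999 genes with several clusters. For genes with both clusters above the floor the median gap was 0.05 and the 95th percentile 0.24. Where at least 1 of the clusters was below the floor they were 0.09 and 0.34. This spread holds no variation between embryos.

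Slit3, Ntn1 and Efnb3 lie on chromosome 11 with Adam19, with 31, 294 and 330 measured genes between them and Adam19 in that order. Their differences were -0.02, -0.01 and 0.26. Slit3, the nearest, was among the members that differed least.

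Genes that act with these receptors and ligands were also read, from 3 lists of partners. Of 38 measured partners of Eph and ephrin signalling, 22 were higher, 14 were lower and 2 had equal values. Their median was 0.02, their differences ran from -0.51 to 0.26, none was higher past 1.2-fold and 1 was lower. That gene was Grip2, a scaffold that can bind ephrin-B tails, at 7.24 and 6.73 and below the floor. Vav3, an exchange factor recruited by Eph receptors, was at 9.42 and 9.19, a difference of -0.22, and the phosphatase gene Acp1 differed by 0.16. Adam10, which cleaves ephrins and Eph receptors, was at 11.12 and 11.15.

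Of 28 measured partners of Slit and Robo, 17 were higher, 10 were lower and 1 had equal values. Their median was 0.03 and none was higher past 1.2-fold. The partner lower past 1.2-fold was Prrg4, a vertebrate relative of a fly regulator of Robo, at 7.81 and 7.32, below the floor. Gpc1, the glypican that binds Slits, was at 10.38 and 10.62, a difference of 0.24. The small GTPase gene Cdc42 differed by -0.14, and Rac1 by 0.12. Of the effectors at the Robo tail, Srgap1, Srgap2 and Enah were nearly level, at 0.03, -0.0011 and 0.05, and Srgap3 differed by -0.12.

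Of 27 measured partners of netrin receptors, 14 were higher and 13 were lower. Their median was 0.00038, and none passed 1.2-fold in either direction. Trim67, a ligase that interacts with Dcc, was at 9.05 and 8.78, a difference of -0.26. Tubb3, the neuronal tubulin that Dcc binds, was at 10.42 and 10.60, a difference of 0.18. Dscaml1 differed by -0.22 and Lrrc4, the NGL gene that partners netrin-G2, by -0.18, both below the floor. Rgma and Rgmb, ligands of neogenin, differed by 0.17 and 0.11. The lists share genes such as Nck1 and Fyn. Over the 86 different partners 55.8% were higher with a median of 0.02, beside 51.7% and 0.0061 for all genes, dim ones included. Of the 68 partners at or above the floor, 39 were higher with a median of 0.02, beside 65.1% and 0.04 for all genes at that level. Compared at that level, the partners lay below all genes.

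**Figure D4:**
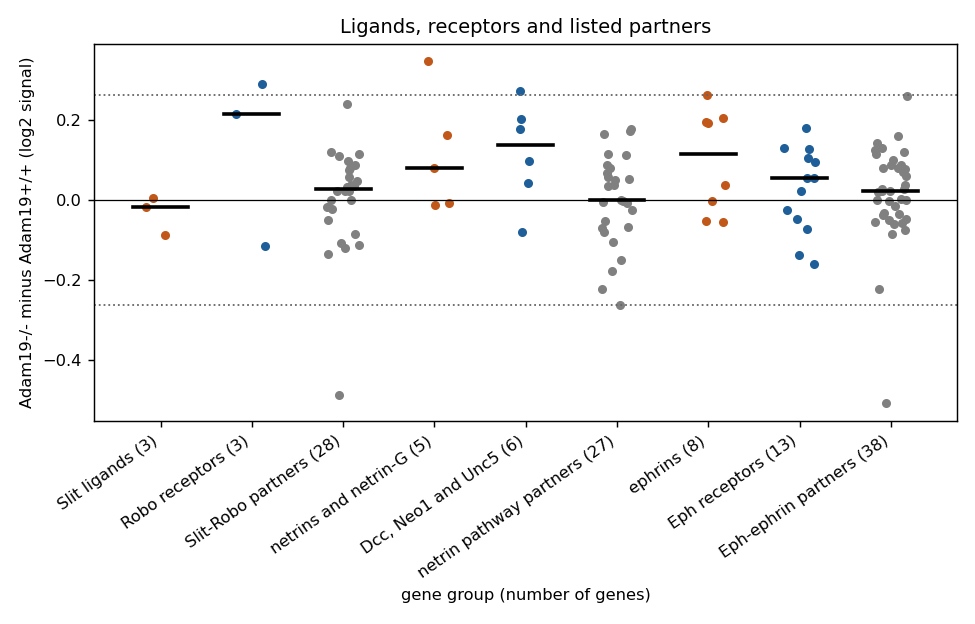
Difference between the arrays (Adam19-/- minus Adam19+/+, log2 signal) for ligands (orange), receptors (blue) and listed partners (grey) of the Slit, netrin and ephrin systems, 1 point a gene, with a black bar at the median and dotted lines at 1.2-fold. The medians are -0.02 for Slits, 0.22 for Robo receptors and 0.03 for their partners. In the Eph system the order is the other way, with 0.11 for ephrins, 0.05 for Eph receptors and 0.02 for their partners.

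Markers of the cell types in the samples differed too, and their part in the values above was not tested. Several members, among them Robo2, Dcc and Unc5c, are known from neurons as well as mesenchyme. Of 8 measured autonomic neuron markers, 5 were higher and 3 lower. Th and Dbh, at 0.46 and 0.43, passed 1.2-fold, as 5.07% of all genes did upward. The 3 lower ones were Prph, Chrna3 and Stmn2, at -0.11, -0.10 and -0.02, and Elavl4 was nearly level at 0.0036. The summed linear signal of the 8 markers was 14825 in the Adam19+/+ sample and 15651 in its Adam19-/- counterpart, a ratio of 1.06. Th and Dbh are part of this sum, so the ratio does not describe each marker. Schwann cell and glia markers had a ratio of 0.935, melanocyte markers 0.946, and neural crest mesenchyme and smooth muscle markers 0.962, from 47917 to 46090. Such sums weigh the brightest genes most, among them the glial Fabp7 at 13.45 and 13.30. By count, 2 of 6 glial markers were higher and 4 lower, and 2 of 5 melanocyte markers higher and 3 lower. Of the 9 mesenchyme and smooth muscle markers 4 were higher and 5 lower, and Twist1, at 0.40, was higher past 1.2-fold.

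Markers of cells outside the neural crest were higher in sum in the Adam19-/- sample. Each of the 12 markers of macrophages and leukocytes was higher, with a summed signal of 2229 and 2956, a ratio of 1.33. Endothelial and endocardial markers, a lineage that uses Ephb4, Efnb2 and Unc5b, had 6 of 10 higher and 2 lower, with sums of 2752 and 3063 and a ratio of 1.11. Cardiomyocyte markers were higher in 8 of 12 with a ratio of 1.07, and erythroid markers in 6 of 7 with a ratio of 1.204. Past 1.2-fold upward, dim genes included, were 7 of 12 leukocyte, 4 of 7 erythroid, 4 of 12 cardiomyocyte and 3 of 10 endothelial markers. The largest differences of any marker were those of the cardiomyocyte gene Myl7, at 0.78, and the leukocyte gene Laptm5, at 0.68. Epicardial markers were mixed, with 5 of 10 higher, 3 lower and 2 equal, and a ratio of 1.07. Tbx18, the brightest of these at 10.19 and 10.40, differed by 0.21, and Krt18 by -0.23. Lrrn4, below the floor at 6.20 and 6.62, had the largest difference of the epicardial markers, 0.42, and was the 1 past 1.2-fold. No marker was at the lowest value of the array, 4.09, on either array.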

How the data were processed

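Per the labels' protocols, tdTomato-positive heart cells were sorted, RNA was extracted and hybridised to Affymetrix arrays, 1 per genotype. The authors deposited signals per transcript cluster on a log scale, read here as log2. The sources used here name no background correction, normalisation, summary method or log base. The highest value stands for 23484 as log2 and 2.02e+06 as a natural log, above the 65535 of a 16-bit scanner, so base 2 was taken. Exactly equal values on both arrays were found for 15.5% of clusters.

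Gene names came from the platform's 2016 annotation, in which 21789 had 1 symbol, 1621 several and 5443 none. All 38 member symbols matched the RefSeq table of GRCm38.p6. Differences are Adam19-/- minus Adam19+/+, with 1.2-fold as the size counted and no test. Scripts ran in Python 3.11.15 (pandas 2.3.3, numpy 2.4.6), with lowess from statsmodels 0.14.6 and figures from matplotlib 3.10.9. The counting was checked on simulated arrays without noise, so that check says nothing on how noise affects the counts. All members were named, and from each partner list up to 4 genes with the largest difference and those past 1.2-fold, except that 1 gene of the Eph and ephrin list is not reported here. Other partner genes, Adam10, Rgma, Rgmb, Rac1, Srgap1, Srgap2, Enah, Nck1 and Fyn, were named after their values were seen. Members, lists and thresholds were chosen with earlier results of these data known. The number of arrays limits the precision.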

Additional observations from a re-analysis of the deposited data

How the results depend on the processing

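The count of guidance genes higher past 1.2-fold was 3 as reported. It was 1 (Unc5c) when only members past the 75th percentile of mean signal were kept, and 1 (Ntn3) after quantile normalisation, after centring each array on its median or after centring on a lowess curve. It was 0 at 1.5-fold and 0 at 2-fold. It stayed at 3 with the floor at the median, with 32 added to the linear signal, with the clusters of a gene averaged and with the brightest cluster chosen on the Adam19+/+ array. The share of the genes compared that were higher past 1.2-fold varied too. It was 5.07% as reported and 1.91% past the 75th percentile of mean signal. After quantile normalisation it was 4.47%, after median centring 3% and after lowess centring 3.94%. With the floor at the median it was 3.76%, and with 32 added it was 2.63%. At 1.5-fold 0.155% were higher, and at 2-fold 0%. No member was lower past 1.2-fold under any of these alternatives. At 1.2-fold, 0.802% to 3.68% of the genes compared were lower. The median difference of the members ran from 0.0050 with median centring to 0.10 with the floor at the median, while the median of the genes compared ran from -0.04 to 0.04 over the same alternatives. Efnb1, Epha3, Epha10, Neo1, Ntng1 and Slit2 changed sign under at least 1 alternative, all of them differences under 0.05. No paired analysis was possible because each genotype has 1 array. With 1 array per genotype no array could be left out, and no value carries an error.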
